A study of Mus musculus with 12 samples.

Results

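A set of 10 genes of fatty acid uptake and oxidation were followed through 12 libraries of mouse aortic valve at postnatal day 10. The genes were Cd36, Cpt1b, Cpt2, Acadm, Acadl, Hadha, Acaa2, Ech1, Etfa and Etfb. They were chosen by name, and all 10 were found among the 20620 genes of the deposited count table. All 10 also passed the filter on low counts, which kept 19346 genes. The libraries were made from poly-A selected RNA of 3 groups of 4: wildtype, libraries labelled Notch1+/-;Gata5+/- (double heterozygous) and libraries labelled Notch1+/-;Gata5-/- (Gata5-null). Both mutant groups carry the Notch1+/- label, and no group differs from wildtype by its Notch1 or its Gata5 label alone. Every library was a pool of 3 valves, so a p-value measures the spread between pools. The labels give no sex or strain background, and they do not describe the alleles.

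Long-chain fatty acids enter a cell with the help of membrane proteins such as CD36 and are activated to acyl-CoA. The carnitine shuttle then carries them into the mitochondrion, where each turn of beta oxidation shortens the chain and hands electrons to the respiratory chain through the electron transfer flavoprotein. In the rodent heart the muscle cells turn from glucose and lactate to fatty acids as their main fuel in the days and weeks after birth. A dissected aortic valve can hold some of that muscle, because the leaflets are anchored next to it. Each gene is therefore given beside the heart muscle level of its library, which is the mean log2 CPM (counts per library, scaled by TMM to the same total) of Ttn and Actn2. These genes encode titin and alpha-actinin-2 of the muscle sarcomere.

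The libraries held 13866604 to 25059653 counts. Gata5, the gene removed in 1 group, had 18 to 56 counts in wildtype, 15 to 112 in the double heterozygous and 0 in each of the 4 Gata5-null libraries. Notch1 was no lower in either mutant group, with 99 to 159 CPM in wildtype, 148 to 194 in the double heterozygous and 152 to 213 in the Gata5-null libraries, so its counts do not check that label. Markers of valve interstitial cells and fibroblasts were abundant, with a summed level of 19133 to 25611 CPM for the 9 of 9 listed genes. Sums over gene lists are given without TMM scaling. The 22 listed cardiomyocyte markers summed to more, 27024 to 60918 CPM, and Ttn alone took 1.344% to 2.74% of the counts of a library. Wildtype replicate 2 and Gata5-null replicate 3 stood apart from the other libraries, with 3208 and 6000 genes at 0 and the lowest mean rank correlations across genes, 0.923 and 0.891.

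The heart muscle level was 12.05, 11.23, 12.18 and 12.12 in wildtype replicates 1 to 4. It was 11.44, 12.21, 12.30 and 12.40 in the double heterozygous and 11.997, 12.22, 11.91 and 12.36 in the Gata5-null libraries. Wildtype replicate 2 and double heterozygous replicate 1 were thus lowest of the 12, and the remaining 10 libraries lay within 11.91 to 12.40. The group means of 11.90 ± 0.45 (SD, n = 4), 12.09 ± 0.44 and 12.12 ± 0.21 did not differ beyond the spread between pools. The differences of 0.22 between Gata5-null and wildtype, 0.19 between double heterozygous and wildtype and 0.03 between the mutant groups had two-sided exact permutation p-values of 0.514, 0.457 and 0.914. In bulk RNA, fewer muscle cells and less RNA per muscle cell cannot be told apart.

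The regions around the transcription starts of 8 of the 10 genes were found in RefSeq (GRCm38.p6), as windows from 250 bases before to 50 after the start. Those of Hadha and Acadl, which had the largest slopes on heart muscle level, and of Acadm and Ech1, which had the smallest, are shown because the genes moved together across the pools. They lie at chr5:30154931-30155230 (minus strand), chr1:66863260-66863559 (minus), chr3:153944594-153944893 (minus) and chr7:28825088-28825387 (plus). Each is written 5′ to 3′ along the gene, and capitals mark AGGTCA on either strand, the unit bound by nuclear receptors such as the PPARs and the estrogen-related receptors.
Hadha: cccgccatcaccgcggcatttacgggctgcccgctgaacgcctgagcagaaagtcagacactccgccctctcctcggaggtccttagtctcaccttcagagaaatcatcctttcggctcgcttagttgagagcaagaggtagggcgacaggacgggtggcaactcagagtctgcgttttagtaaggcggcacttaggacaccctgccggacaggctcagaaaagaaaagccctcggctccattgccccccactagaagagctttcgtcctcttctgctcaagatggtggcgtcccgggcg
Acadl: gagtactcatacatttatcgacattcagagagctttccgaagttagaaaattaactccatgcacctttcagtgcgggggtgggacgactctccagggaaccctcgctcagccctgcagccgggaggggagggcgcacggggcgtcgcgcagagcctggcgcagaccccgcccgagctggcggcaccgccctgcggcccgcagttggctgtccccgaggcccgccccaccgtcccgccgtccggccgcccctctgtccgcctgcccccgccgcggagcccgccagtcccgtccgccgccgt
Acadm: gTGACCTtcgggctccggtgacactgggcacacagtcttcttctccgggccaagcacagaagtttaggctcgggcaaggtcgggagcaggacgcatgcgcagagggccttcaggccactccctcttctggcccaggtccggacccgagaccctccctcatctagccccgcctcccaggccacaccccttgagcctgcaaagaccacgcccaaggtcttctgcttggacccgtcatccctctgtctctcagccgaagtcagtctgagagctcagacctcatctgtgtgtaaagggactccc
Ech1: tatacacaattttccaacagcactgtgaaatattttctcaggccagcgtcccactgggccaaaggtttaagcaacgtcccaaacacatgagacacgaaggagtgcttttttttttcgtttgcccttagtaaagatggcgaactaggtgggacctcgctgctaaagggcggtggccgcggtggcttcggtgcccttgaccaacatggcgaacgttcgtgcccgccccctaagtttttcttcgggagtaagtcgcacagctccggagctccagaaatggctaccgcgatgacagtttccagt
Of these windows, that of Acadm held AGGTCA, 249 bases before the start on the opposite strand. Of the 8 windows found, 2 held it (Acadm and Cd36), against 16.3% of all 32851 windows of that length. AAGGTCA, a longer form that contains it and is the core of the estrogen-related receptor element, was in that of Acadm alone, against 4.72% of all windows. Bases of that element before the core were not searched for. The direct repeat known for PPAR with RXR, AGGTCA repeated in the same direction with 1 base between, was in none of the 8 and in 0.0396% of all windows. With AGGNCA as the repeated unit it was again in none, against 0.381%. The MEF2 site was in none of the 8, against 3.19% of all windows. GC content ranged from 43.0% (Cd36) to 70.3% (Acadl), around a median of 52.7% over all windows. Hadha and Hadhb, which encode the alpha and beta subunits of one enzyme, are transcribed away from each other from starts 273 bases apart.

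Levels were compared between genes per kilobase of transcript. In wildtype, Etfb stood highest at 189 ± 43.9 CPM per kilobase (SD, n = 4). Acadl followed at 115 ± 28.0, Acadm at 104 ± 24.5, Etfa at 102 ± 25.9, Acaa2 at 100.4 ± 34.1, Ech1 at 94.4 ± 21.1, Hadha at 93.3 ± 28.9 and Cd36 at 81.5 ± 25.6. From Acadl to Cd36, neighbours in this order differed by less than their SDs. Cpt1b at 27.2 ± 5.29 and Cpt2 at 6.98 ± 1.81 CPM per kilobase stood below the other 8 genes and apart from each other. Ttn and Actn2 were at 210 ± 58.6 and 247 ± 76.3 on the same scale.

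**Figure D1:**
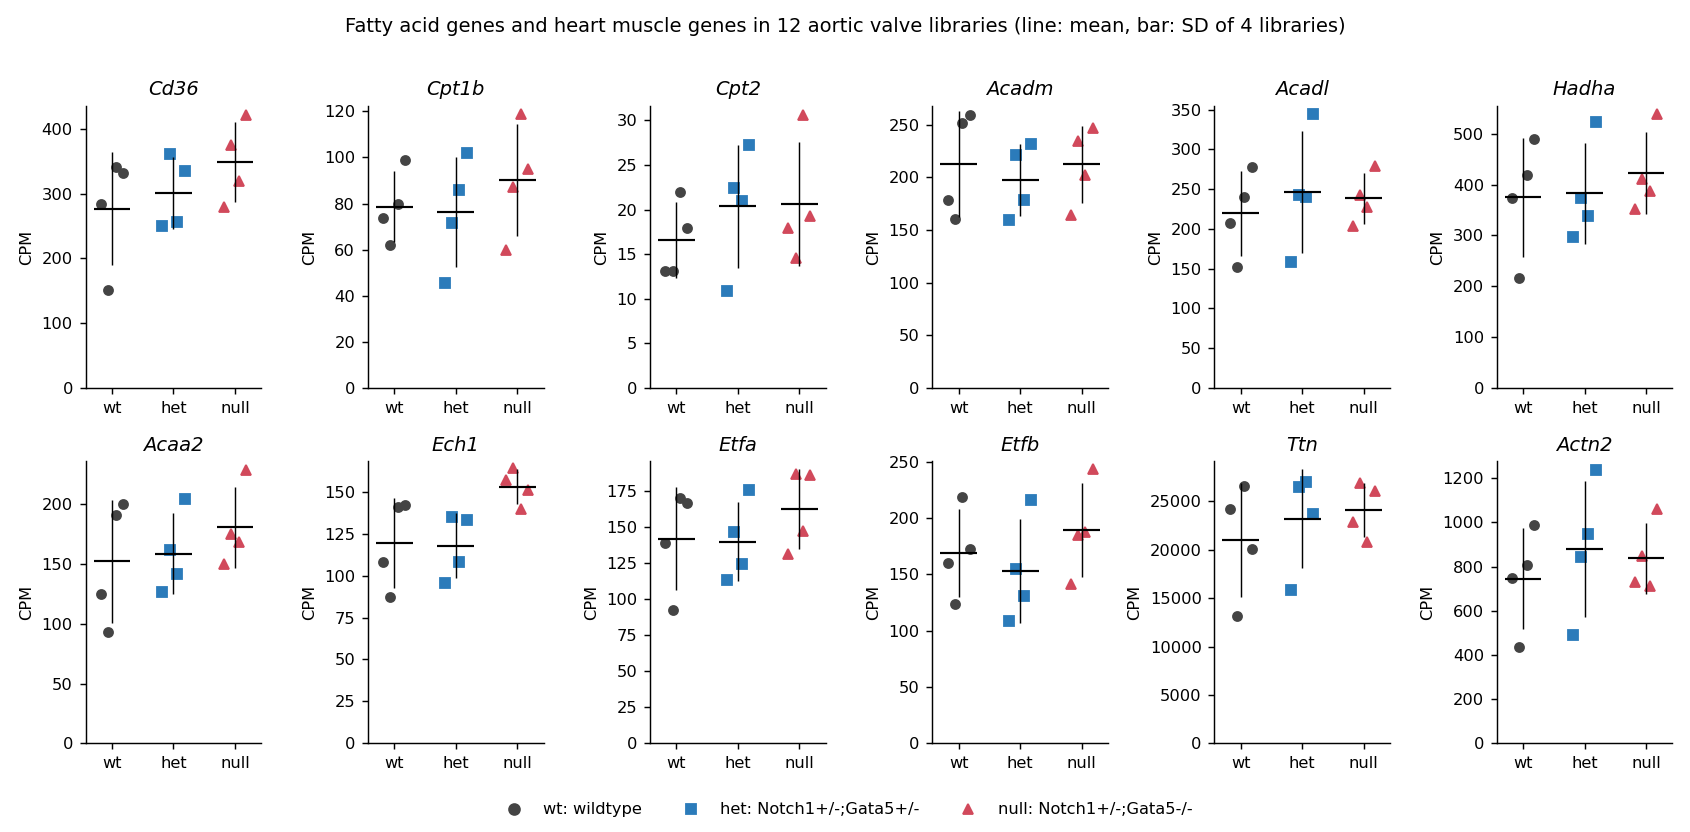
Normalised level in CPM (y axis, from 0) of the 10 fatty acid genes and of Ttn and Actn2 in each of the 12 libraries (points), by genotype (x axis), with the mean (line) and SD (bar) of 4 libraries. Wildtype replicate 2 and double heterozygous replicate 1, the second circle and the leftmost square of each panel, were low in most panels. For Ech1 all 4 Gata5-null libraries lay above all 4 double heterozygous ones.

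Cd36 (ENSMUSG00000002944) encodes the membrane receptor that assists fatty acid uptake in heart muscle, fat and capillary endothelium. It was at 284, 152, 341 and 332 CPM in wildtype replicates 1 to 4, at 251, 361, 256 and 336 in the double heterozygous and at 280, 375, 319 and 422 in the Gata5-null libraries. Wildtype replicate 2 was lowest and Gata5-null replicate 4 highest, and the 3 groups overlapped. The fitted log2 fold change of Gata5-null over wildtype was 0.33 (SE 0.22), with an adjusted p of 0.9997 by edgeR's quasi-likelihood test with Benjamini-Hochberg adjustment, the test used for every adjusted p of a genotype difference here.

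Cpt1b (ENSMUSG00000078937), the muscle form of the carnitine palmitoyltransferase of the outer mitochondrial membrane, controls entry into the shuttle. It was at 73.9, 62.0, 79.7 and 98.7 CPM in wildtype, 45.5, 71.7, 85.9 and 102 in the double heterozygous and 59.7, 87.0, 119 and 95.1 in the Gata5-null libraries. Double heterozygous replicate 1 was lowest and Gata5-null replicate 3 highest, and the groups overlapped. Cpt1a, the form of liver and many other tissues, was at a mean of 108 CPM in wildtype and had a log2 fold change of 0.03 (SE 0.15) for Gata5-null over wildtype, against 0.20 (SE 0.23) for Cpt1b. Cpt2 (ENSMUSG00000028607), which turns the acyl-carnitine back into acyl-CoA inside the mitochondrion, ranged from 13.1 to 22.03 CPM in wildtype, from 10.8 to 27.3 in the double heterozygous and from 14.6 to 30.6 in the Gata5-null libraries. It had the lowest counts of the 10 genes, 208 to 562 per library, and the largest SE of the genotype differences.

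Acadm (ENSMUSG00000062908) and Acadl (ENSMUSG00000026003) encode the acyl-CoA dehydrogenases of medium and long chains, which take the first step of each turn. Acadm ranged from 161 to 259 CPM in wildtype, from 159 to 231 in the double heterozygous and from 165 to 247 in the Gata5-null libraries, and its means were 213, 198 and 212 CPM. Acadl was at 208, 152, 241 and 278 CPM in wildtype, 158, 242, 241 and 345 in the double heterozygous and 203, 242, 228 and 279 in the Gata5-null libraries. Its lowest values were again those of wildtype replicate 2 and double heterozygous replicate 1, and its highest was that of double heterozygous replicate 4, the library with the highest heart muscle level.

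Hadha (ENSMUSG00000025745), the trifunctional protein subunit that carries out the second and the third reaction, was at 373, 216, 419 and 490 CPM in wildtype. It was at 297, 373, 338 and 523 CPM in the double heterozygous and at 353, 411, 387 and 539 in the Gata5-null libraries. Each group thus spanned a wide range, with wildtype replicate 2 lowest of all. Acaa2 (ENSMUSG00000036880), the mitochondrial thiolase of the last reaction, was at 125, 93.3, 191 and 200.2 CPM in wildtype, 127, 161, 141 and 204 in the double heterozygous and 150, 175, 168 and 229 in the Gata5-null libraries. Its order of libraries was close to that of Hadha, and the groups overlapped for both genes.

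Ech1 (ENSMUSG00000053898) encodes a dienoyl-CoA isomerase that handles intermediates of unsaturated fatty acids. It was at 108, 87.2, 141 and 142 CPM in wildtype, 95.8, 135, 108 and 133 in the double heterozygous and 157, 164, 140 and 151 in the Gata5-null libraries. The 4 Gata5-null libraries lay above all 4 double heterozygous ones and above 2 of the 4 wildtype ones. The Gata5-null group also varied least, with a coefficient of variation of 6.82% against 22.4% in wildtype and 16.2% in the double heterozygous.

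Etfa (ENSMUSG00000032314) and Etfb (ENSMUSG00000004610) encode the subunits of the electron transfer flavoprotein, which accepts electrons from the acyl-CoA dehydrogenases. Etfa was at 139, 92.3, 170.2 and 167 CPM in wildtype, 113, 147, 125 and 176 in the double heterozygous and 131, 187, 148 and 186 in the Gata5-null libraries. Etfb was at 159.8, 124, 218 and 173 CPM in wildtype, 109, 155, 130 and 216 in the double heterozygous and 141, 185, 188 and 244 in the Gata5-null libraries. For both subunits the low libraries were wildtype replicate 2 and double heterozygous replicate 1, and the groups overlapped.

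None of the 10 genes was called between genotypes at an adjusted p under 0.05. For Gata5-null against wildtype, 9 of 10 had a fold change above 0 and the median log2 fold change was 0.20 (from -0.001 for Acadm to 0.35 for Ech1), where 46.1% of all 19346 genes were above 0 and their median was -0.03. In that comparison 0.0258% of all genes were called (5 genes, all lower in the Gata5-null libraries). Without wildtype replicate 2 the median of the 10 genes was 0.07 with 7 above 0, and with heart muscle level as a covariate it was 0.06 with 8 above 0. For the double heterozygous against wildtype, 5 of 10 lay above 0 and the median was 0.01 (from -0.14 for Etfb to 0.30 for Cpt2), with 0% of all genes called. For Gata5-null against double heterozygous, 9 of 10 lay above 0, the median was 0.20 (from -0.05 for Acadl to 0.37 for Ech1) against -0.04 over all genes, and 0% of all genes were called. The first and the second comparison share the wildtype libraries, and the first and the third share the Gata5-null ones. The second and the third share the double heterozygous libraries, which enter them with opposite signs. At an unadjusted p under 0.05 stood 1, 0 and 1 of the 10 genes and 1044, 242 and 616 of all genes in the 3 comparisons by edgeR, and neither DESeq2 nor limma-voom called a member.

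**Figure D2:**
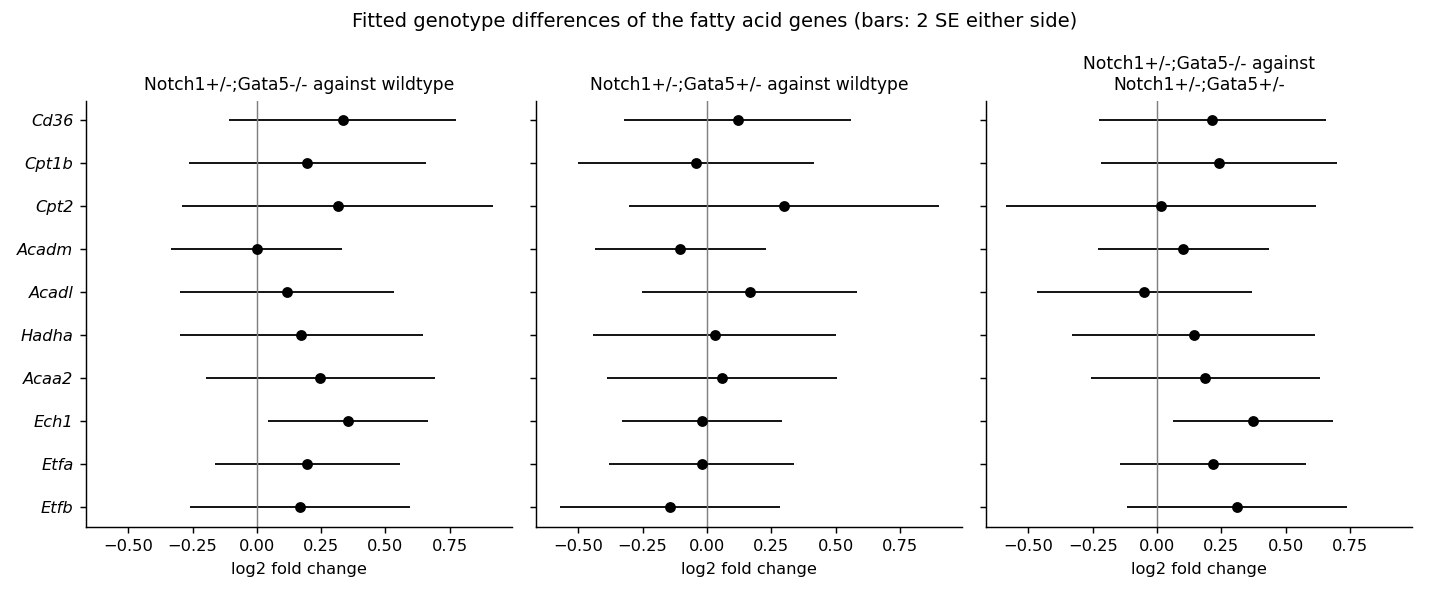
Fitted log2 fold change (x axis) of each of the 10 genes (y axis) in the 3 genotype comparisons, with bars of 2 SE either side. The bars of Ech1 leave out 0 in both comparisons of the Gata5-null libraries (log2 fold changes of 0.35 and 0.37), and those of the other 9 genes cross 0 in all 3.

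Ech1 had the largest fold change in both comparisons of the Gata5-null libraries. Against double heterozygous it was 0.37 (SE 0.16, or 0.06 to 0.69 within 2 SE), with an unadjusted edgeR p of 0.0245 and an adjusted p of 1. The two-sided exact permutation p over 4 against 4 libraries was 0.0286, the smallest it can give. It was the 1 gene of the 10 whose groups did not overlap there, as was true of 2.73% of all genes. Against wildtype, Ech1 differed by 0.35 (SE 0.16, adjusted p = 0.870 by edgeR's quasi-likelihood test, two-sided exact permutation p = 0.0857). No member's groups were without overlap against wildtype, where 2.93% of all genes were for the Gata5-null and 2.24% for the double heterozygous libraries. Taken over heart muscle level within each library, the log2 difference of Ech1 was 0.35 against double heterozygous (exact permutation p = 0.0857) and 0.16 against wildtype (exact permutation p = 0.343). The 0.0857 was the smallest exact permutation p over heart muscle level among the 10 genes and 3 comparisons. This ratio takes off heart muscle level in full, as for a slope of 1, while the slope of Ech1 on it was 0.53. With heart muscle level as a covariate instead, the 10 genes differed between Gata5-null and wildtype by -0.12 to 0.26. The difference of Ech1 from double heterozygous stayed between 0.30 and 0.45 in all the other settings tried, with no adjusted p under 0.05.

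The authors' deposited table, which names no comparison, lists all 10 genes as not significant. In the authors' deposited table the log2 fold changes ran from 0.03 for Acadm to 0.38 for Ech1, whose adjusted p was 0.614. A DESeq2 fit of the counts for Gata5-null over wildtype gave the same value for Acadm, 0.0265 (SE 0.171). The highest value of the 10 genes, 0.384, was the same in both too. In the edgeR fit of that comparison Acadm and Ech1 had -0.001 and 0.35.

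Across the pools, low values of the 10 genes fell mostly in the libraries low in heart muscle. Wildtype replicate 2 held the lowest value of 6 genes and double heterozygous replicate 1 that of the other 4, and each was among the 2 lowest libraries for 9 genes. The highest values were spread over more libraries, 4 in Gata5-null replicate 4, 2 each in Gata5-null replicates 2 and 3 and 1 each in double heterozygous replicate 4 and wildtype replicate 4. Within every genotype, replicate 4 was the highest library for Acadm, Acadl, Hadha and Acaa2, as it was for Actn2. Hadha, for instance, was there at 490, 523 and 539 CPM in wildtype, double heterozygous and Gata5-null. For each of the other members, replicate 4 was not the highest in every genotype. Gata5-null replicate 3, next lowest in heart muscle level at 11.91 after those 2 lowest libraries, held the highest Cpt1b and Cpt2. Within genotypes, every slope of member level on heart muscle level was above 0, where a slope of 1 means that both change in proportion.

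By edgeR's quasi-likelihood test of the slope with Benjamini-Hochberg adjustment, 6 of the 10 genes rose with heart muscle level, where 1.13% of all 19346 genes did. The slopes of these were 0.87 for Hadha (SE 0.17, adjusted p = 0.00457), 0.86 for Acadl (SE 0.16, adjusted p = 0.00292) and 0.81 for Cd36 (SE 0.18, adjusted p = 0.0144). Acaa2 followed at 0.80 (SE 0.18, adjusted p = 0.0221), Etfb at 0.75 (SE 0.18, adjusted p = 0.0303) and Etfa at 0.72 (SE 0.17, adjusted p = 0.0219). The 4 that did not pass had slopes of 0.69 for Cpt1b (SE 0.23), 0.65 for Cpt2 (SE 0.37), 0.58 for Acadm (SE 0.17) and 0.53 for Ech1 (SE 0.17), with adjusted p-values by the same edgeR test of 0.280, 0.857, 0.110 and 0.199. The median over the 10 genes was 0.74, against 0.06 over all genes. By size alone the 10 slopes lay between percentile 77.2 (Ech1) and 85.1 (Hadha) of all 19346 genes, so many genes had larger ones.

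These calls rested on few libraries and on the terms of the fit. Once a term for each replicate number was added, 90 genes in all passed and 0 of the 10 did. The 10 slopes then had a median of 0.52 and all lay above 0. Whether the replicate numbers pair the libraries was not settled. Without wildtype replicate 2, none of the 10 genes passed (26 genes in all did, and 756 had an unadjusted p under 0.05), although their slopes stayed between 0.41 and 0.95. Without both libraries lowest in heart muscle level, no gene of the table passed by edgeR (1846 had an unadjusted p under 0.05), 9 of the 10 slopes lay above 0 with a median over the 10 of 1.06, and Cpt2 was at -0.82 (SE 1.01). Without the libraries that stood apart, 2 passed (Cpt1b and Acadl) among 74 genes in all. Without double heterozygous replicate 1 or Gata5-null replicate 4, 4 passed, among 209 and 176 genes. Without wildtype replicate 3 or double heterozygous replicate 4, 3 passed, among 169 and 132 genes. DESeq2 called 8 of the 10 among 436 genes in all, and limma-voom 6 among 236, against the 220 genes called in either direction by edgeR in all 12 libraries.

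**Figure D3:**
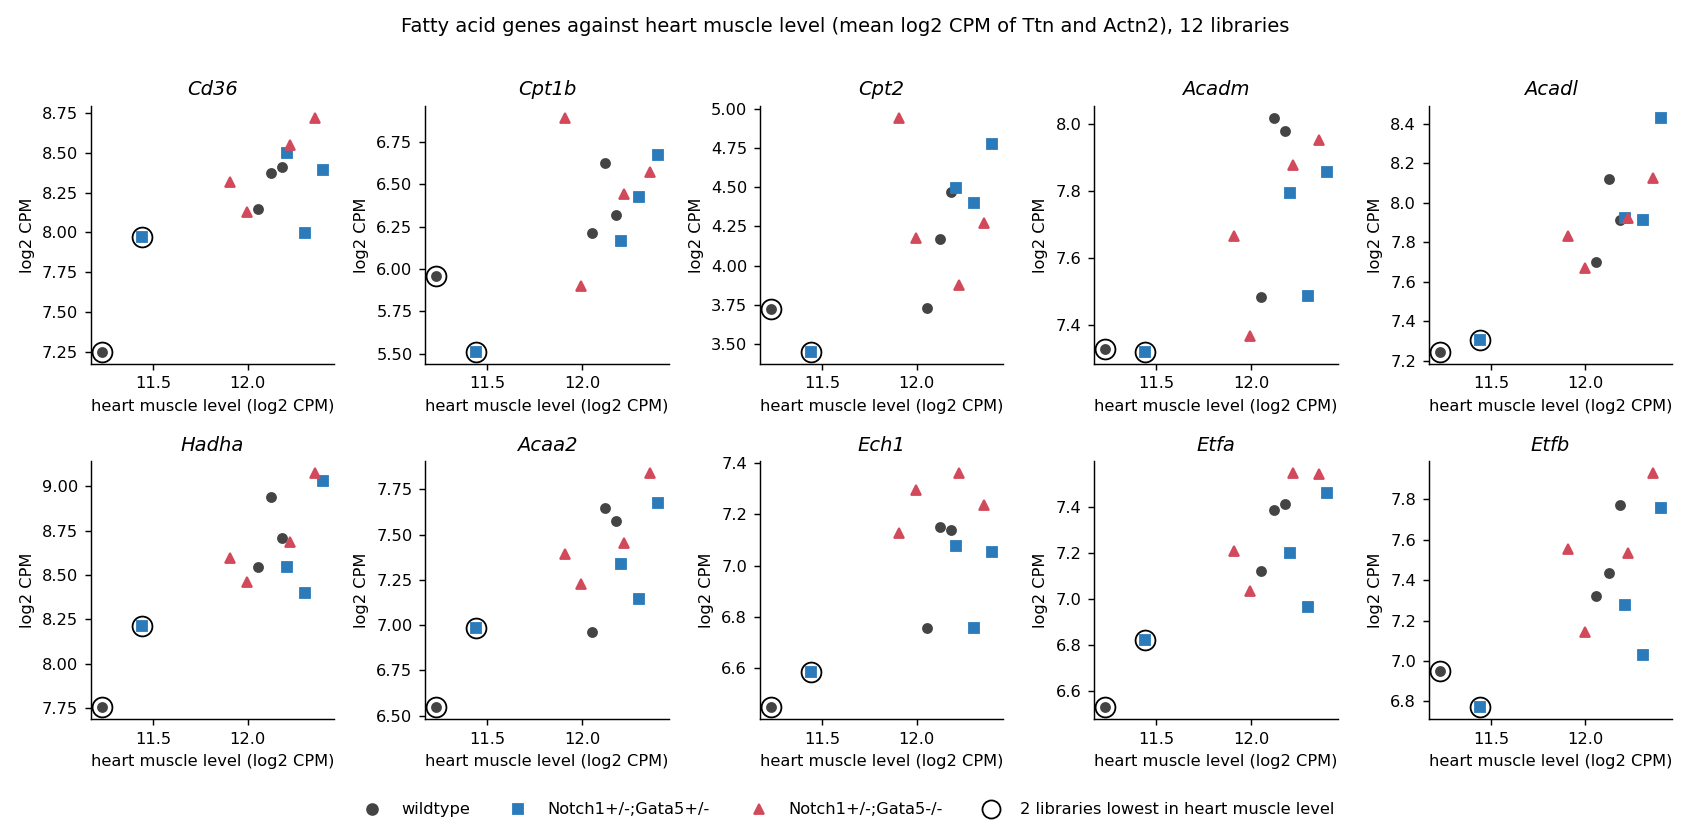
Log2 CPM of each of the 10 genes (y axis) against the heart muscle level of the library (x axis, mean log2 CPM of Ttn and Actn2), with 1 point per library and shapes for genotypes. The 2 ringed libraries, wildtype replicate 2 at 11.23 and double heterozygous replicate 1 at 11.44, sit at the lower left of most panels, and the other 10 libraries lie between 11.91 and 12.40.

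Pearson's r with heart muscle level over the 12 libraries ran from 0.59 for Cpt2 to 0.90 for Acadl, with a median of 0.75. For Acadl it passed adjustment over all genes (two-sided permutation test, 100000 resamples, adjusted p = 0.0341), and for the other 9 it did not, where 0.258% of all genes passed with r above 0. The call of Acadl was lost with RLE scaling, with Ttn alone, as deviations from the genotype means, without the 2 libraries that stood apart or the 2 farthest from the median heart muscle level, and in 9 of the 12 tests with 1 library left out (permutation test, adjusted p from 0.0135 to 0.361 over the 12). Spearman's rho ran from 0.34 for Ech1 to 0.87 for Acadl, and no member passed by rho (smallest permutation p 0.00049, for Acadl), where 0% of all genes did. Without the 2 libraries farthest from the median heart muscle level, which are those 2 lowest ones, r ran from -0.07 for Ech1 to 0.74 for Acadl with a median of 0.41, and 1 of the 10 had a permutation p under 0.05. For the other 9 genes the relation by r was no longer past 0.05 in the remaining 10 libraries, whose heart muscle level spans 11.91 to 12.40. There 9 of the 10 slopes within genotypes were above 0, and none was called. As deviations from the genotype means, r was 0.55 to 0.90 and no member passed adjustment. The labels give no sequencing batch, so no value within batches was computed.

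**Figure D4:**
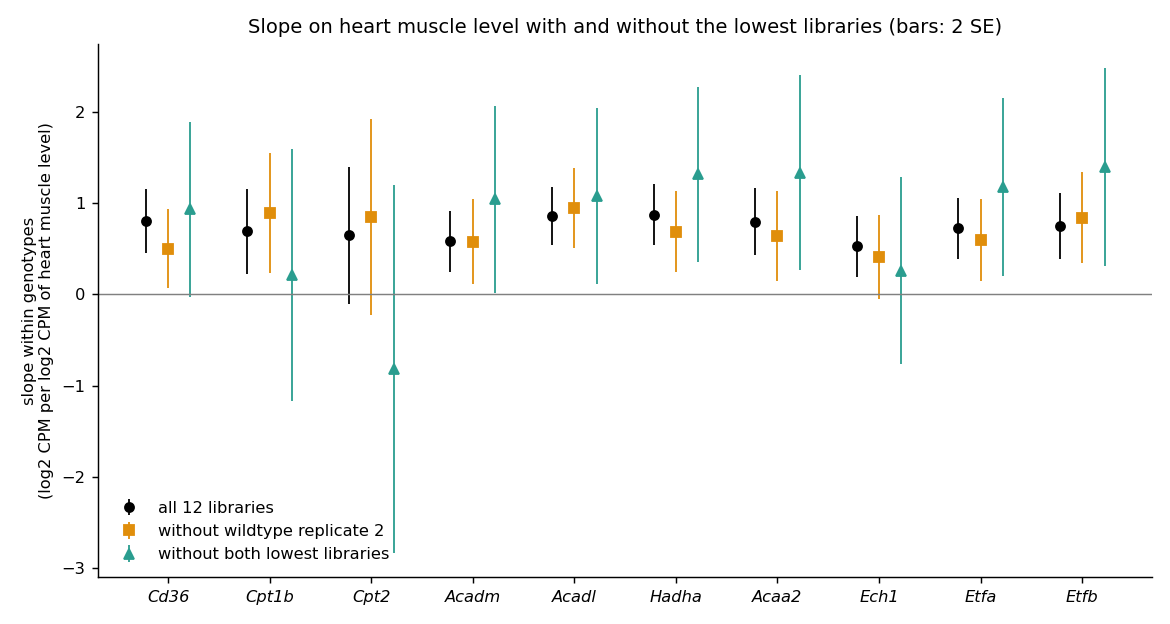
Slope of each of the 10 genes on heart muscle level within genotypes (y axis, log2 CPM per log2 CPM) with bars of 2 SE, in all 12 libraries, without wildtype replicate 2 and without both lowest libraries. The slopes of all 12 libraries lie between 0.53 and 0.87, and the bars widen once the lowest libraries are left out.

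The 10 genes also moved with each other. Over the 12 libraries the 45 pairwise r of log2 CPM ran from 0.46 for Cpt2 with Cd36 to 0.95 for Acaa2 with Hadha, with a median of 0.78. These values share libraries, depth and muscle content, and they are given as a description. The genes most like the mean of the 10 z-scored levels were Pdhb (r = 0.961), Ckm (0.957), Ldhb (0.956), Pgk1 (0.956), Slc25a4 (0.955), Myl3 (0.954), Hspa9 (0.949) and Atp5po (0.949), ranked among 13883 genes with a mean log2 CPM of at least 1. Among them are a pyruvate dehydrogenase subunit (Pdhb), muscle creatine kinase (Ckm), the mitochondrial ADP/ATP carrier of muscle (Slc25a4) and a ventricular myosin light chain (Myl3). Actn2 stood at rank 118 with r = 0.878 and Ttn at rank 533 with r = 0.716. The genes most like Cd36 alone were Hsdl2 (r = 0.982), Myl2 (0.967), Apoo (0.965), Mb (0.964) and Aqp4 (0.951), among them the ventricular light chain Myl2 and myoglobin, Mb.

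Other cell types can carry some of these genes, Cd36 above all, and their markers were read in the same libraries. Of 6 listed adipocyte markers 3 were in the table (Adipoq, Plin1 and Cidec), and these summed to 28.1 CPM in wildtype replicate 2 and to 0 to 7.14 CPM in the other 11 libraries. Of 3 measured brown fat markers, Ucp1 reached 42.7 CPM and Cidea 22.6 CPM in wildtype replicate 2, their highest values, while Cox7a1, which rose with heart muscle level (slope 1.22), was lowest there at 34.5 CPM. The sum of the 3, without TMM scaling, was 102 CPM in that library and higher, 112 CPM, in wildtype replicate 3. Wildtype replicate 2 had the lowest Cd36 of all. Of 6 capillary endothelial markers, which summed to 328 to 420 CPM in wildtype, 361 to 481 in the double heterozygous and 376 to 428 in the Gata5-null libraries, Gpihbp1 and Aplnr rose with heart muscle level, with slopes of 1.47 and 1.03 (edgeR adjusted p = 0.0223 and 0.0333). The most abundant of the 6, Aqp1 at 259 to 379 CPM, had a slope of -0.41 (SE 0.13, edgeR adjusted p = 0.236), and the median slope of the 6 was 0.57. Leaving out Ttn and Actn2, which define the level, 16 of 20 cardiomyocyte markers rose with it, and their median slope was 1.21. None of the 9 interstitial and fibroblast markers (median slope -0.09) and none of the 8 valve and vascular endothelial markers (median 0.07) did by that test. The part of capillary content in the slope of Cd36 was not tested. The 5 smooth muscle markers summed to 3338 to 4165 CPM in the Gata5-null libraries, 4287 to 4692 in the double heterozygous and 4636 to 6476 in wildtype. By edgeR, 3 of the 5 were called lower in Gata5-null than in wildtype, Myh11 at -0.75, Cnn1 at -0.81 and Mylk at -0.75 (adjusted p = 0.0136, 0.0365 and 0.00861), and none of the 5 was called for its slope on heart muscle level. Their part in the members' differences was not tested.

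Related genes of the pathway showed no called difference between any genotypes. Of 12 measured genes of uptake, binding and activation, 9 lay above 0 for Gata5-null over wildtype, from Slc27a6 at 0.96 (SE 0.73) to Acsl4 at -0.47 (SE 0.23) leaving out genes whose mean log2 CPM was under 1, and the scarce Acsl6 was at -2.55 (SE 2.18). Fabp3, the fatty acid binding protein of heart muscle, was at 0.45 (SE 0.37). On heart muscle level 2 of the 12 passed, Lpl with a slope of 0.96 and Acsl1 with 0.80, which encode the lipase that frees fatty acids from lipoproteins and an acyl-CoA synthetase. Of 6 genes of the carnitine shuttle none passed, and they ran from Cpt1c at 0.29 (SE 0.29) to Slc22a5 at -0.13 (SE 0.38) for Gata5-null over wildtype.

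Of 14 further genes of mitochondrial beta oxidation, 10 lay above 0 for Gata5-null over wildtype, from Acad12 at 1.26 (SE 0.53, edgeR adjusted p = 0.860) to Acot2 at -0.48 (SE 0.46). All 14 slopes on heart muscle level were above 0 with a median of 0.63, and 5 passed: Acot2 (1.80), Acot13 (1.68), Eci1 (0.95), Acadvl (0.92) and Hadhb (0.82). Acadvl encodes the very long-chain dehydrogenase. Hadhb, the partner of Hadha, differed by 0.19 (SE 0.25) between Gata5-null and wildtype, close to the 0.17 (SE 0.24) of Hadha. Etfdh, which takes the electrons from the flavoprotein of Etfa and Etfb to ubiquinone, had a slope of 0.65 (SE 0.18, edgeR adjusted p = 0.0993). The peroxisomal pathway, which starts on very long chains, had 0 of 7 tested genes passing and a median slope of 0.39, and its genes ran from Abcd2 at 0.61 (SE 0.69) to Ehhadh at -0.49 (SE 0.55) between Gata5-null and wildtype. Of 9 genes of lipid storage and lipolysis none passed either, and the range was from G0s2 at 0.39 (SE 0.34) to Pnpla2 at -0.62 (SE 0.35).

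Of 15 regulators, 2 rose with heart muscle level, Ppargc1a (slope 1.26), the coactivator of mitochondrial genes, and Acacb (0.86), the acetyl-CoA carboxylase whose product malonyl-CoA inhibits the carnitine palmitoyltransferase of Cpt1b. Between Gata5-null and wildtype the regulators ran from Mlycd at 0.53 (SE 0.29), which breaks malonyl-CoA down, to Rxrg at -0.69 (SE 0.89), and Ppara was at 0.40 (SE 0.44). Of 7 measured PPAR-responsive genes none passed, with log2 fold changes from 0.33 (SE 0.19) for Ucp2 to -0.11 (SE 0.14) for Vldlr. Glucose use was followed as the other fuel: 13 of 18 genes rose with heart muscle level, with a median slope of 0.81 over the 18. These were the glucose carrier Slc2a4 (1.97) and the glycolytic genes Hk1, Hk2, Pfkm, Aldoa, Gapdh, Pgk1, Pkm, Ldha and Ldhb. The others were the pyruvate dehydrogenase genes Pdha1 and Pdhb and the pyruvate dehydrogenase kinase gene Pdk1. Slopes of the 13 were from 0.69 (Pkm) upward. Between Gata5-null and wildtype the genes of glucose use ran from Ldha at 0.30 (SE 0.20) to Slc2a4, which encodes the insulin-responsive carrier, at -0.94 (SE 0.55).

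**Figure D5:**
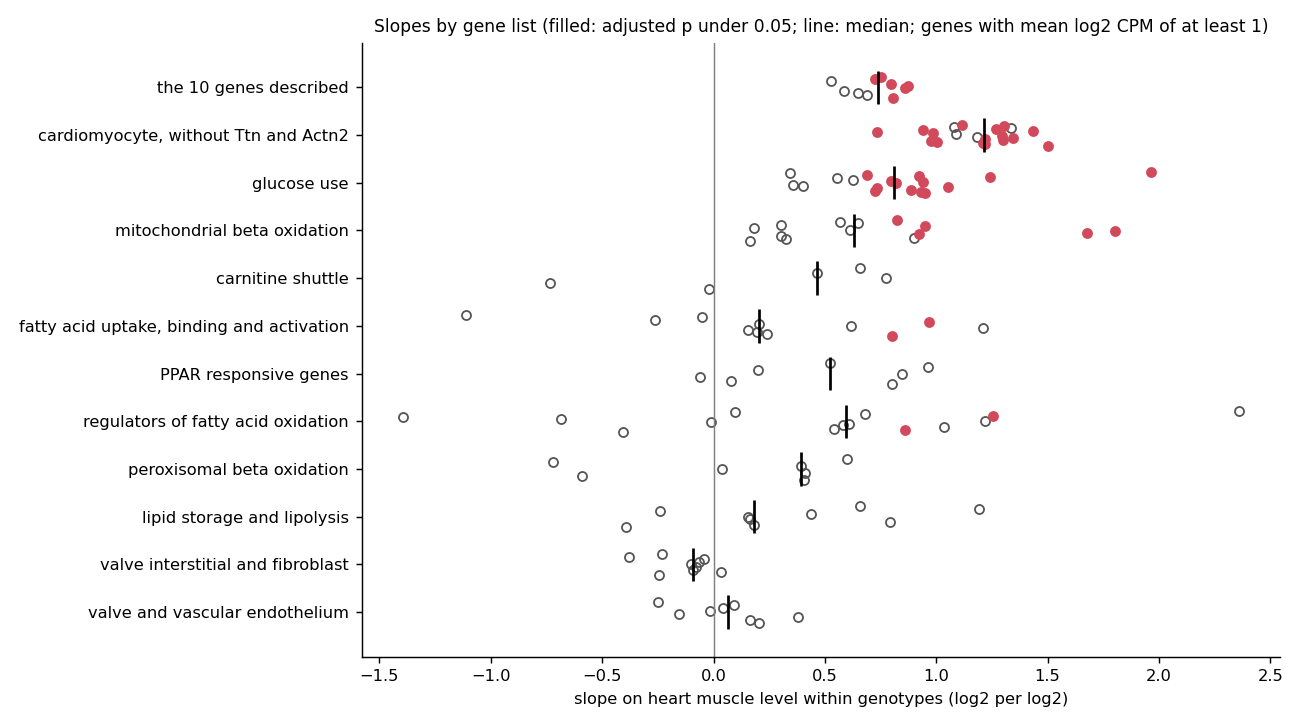
Slope on heart muscle level within genotypes (x axis, log2 per log2) of the 10 genes and of the genes of each list (y axis), with filled points for an edgeR adjusted p under 0.05 and a line at the median. The 10 genes (median 0.74) lie between the cardiomyocyte markers other than Ttn and Actn2 (1.21) and the interstitial markers (-0.09), beside the genes of glucose use (0.81).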

How the data were processed

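Poly-A RNA of 12 pools was sequenced. Per the submitters' processing notes, Trim Galore, STAR 2.7.10b, the GRCm39 genome and DESeq2 1.34.0 were used. How reads were counted, with which annotation and strand setting, is not given in the sources used here. Their protocol describes directional and non-directional libraries, so genes that overlap on opposite strands may share reads. Overlapping genes in the count table reached at most 152 counts per library (Gm44502, at Cpt1b). The authors deposited raw counts (whole numbers per gene and library). They also deposited a table of their own comparison, with a mean normalized signal, log2 fold change, standard error and Wald statistic (scores), p-value and adjusted p-value. Symbols came from that table, and those of 6077 more genes from GENCODE M21, an older build used also for transcript length (the APPRIS principal transcript).

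The fits used edgeR 4.0.16 in R 4.3.3 (filterByExpr, which removed 1274 genes; TMM; robust quasi-likelihood F test with 1 term per genotype over all 12 libraries; Benjamini-Hochberg over 19346 genes; called at an adjusted p under 0.05). CPM of single genes are TMM-scaled, and log2 CPM used a prior count of 2. Summed CPM of gene lists were scaled to the total counts of the library without TMM. For slopes, the centred heart muscle level was added to the genotype terms. Exact permutation tests of 4 against 4 libraries used all 70 splits, and their smallest p is 0.0286. Correlation p-values came from 100000 permutations in Python 3.11.15 (numpy 2.4.6). The calling was tested on simulated data whose planted effects were larger than those of the members, so it does not cover effects of their size.

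The members, marker lists, pathway lists and tests were chosen with earlier results of these data known. Named were all members, of each pathway list the genes with the highest and the lowest Gata5-null to wildtype log2 fold change at a mean log2 CPM of at least 1, every gene of these lists called, Cpt1a, Fabp3, Acadvl, Hadhb and Etfdh, and the 8 genes most like the members and 5 most like Cd36. Ppara, Acsl6 and the fat, capillary and smooth muscle markers were named after their values were seen, as was the distance between Hadha and Hadhb. Alternatives were RLE and upper quartile scaling, no filter and a filter of 1 CPM or more in 4 or more libraries, limma-voom (limma 3.58.1) with and without quality weights, DESeq2 1.42.0, only the 8 libraries compared, the replicate number as a block, heart muscle level or the cardiomyocyte list as a covariate or as the level itself, Ttn or Actn2 alone, each library left out, and the 2 libraries that stood apart left out. Leaving out the 2 libraries lowest in heart muscle was added after seeing the data. None of 36 sets of 4 libraries (12 genes by 3 genotypes) held an outlier by Dixon's test.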

Additional observations from a re-analysis of the deposited data

How the results depend on the processing

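No member was called between genotypes in any setting, and the signs of differences near 0 turned. For Acadm, Gata5-null over wildtype (main log2 fold change -0.001) was 0.0265 by DESeq2, 0.0265 with RLE scaling, 0.0106 with upper quartile scaling, 0.0153 by limma-voom, 0.0156 with quality weights, 0.0013 with only the 8 libraries compared and 0.0031 with the stricter filter. Leaving out 1 library at a time gave -0.0997 to 0.119. For Acadl it was -0.0547 with the heart muscle covariate, -0.0234 with the wider cardiomyocyte covariate, -0.0104 without the 2 libraries lowest in heart muscle, and -0.0104 (without wildtype replicate 2) to 0.251 with 1 library left out. Hadha was at -0.0040 without those 2 libraries and at -0.0040 to 0.329 with 1 left out. Without the 2 libraries that stood apart, Cpt1b was at -0.0562 and Cpt2 at -0.0284.

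For the double heterozygous over wildtype, the heart muscle covariate gave -0.0567 for Acaa2, -0.0136 for Acadl and -0.0973 for Hadha, and the wider covariate gave -0.0396 for Acaa2 and -0.0827 for Hadha. Quality weights gave -0.0069 for Acaa2, -1.38e-06 for Cd36 and -0.106 for Hadha, and limma-voom gave 0.000377 for Ech1 and 0.0071 for Etfa. Without the 2 libraries lowest in heart muscle, Acaa2 was at -0.0245, Cd36 at -0.0066, Cpt1b at 0.0388 and Hadha at -0.0576. Without the 2 that stood apart, Acaa2 was at -0.118, Cd36 at -0.0848 and Hadha at -0.162. With 1 library left out at a time the ranges were -0.118 to 0.220 for Acaa2, -0.0372 to 0.329 for Acadl, -0.217 to 0.0070 for Acadm, -0.0846 to 0.236 for Cd36, -0.214 to 0.139 for Cpt1b, -0.145 to 0.0756 for Ech1, -0.182 to 0.0783 for Etfa, -0.357 to 0.0066 for Etfb and -0.162 to 0.189 for Hadha. For Gata5-null over double heterozygous, quality weights gave 0.0846 for Acadl and -0.0414 for Cpt2. Cpt2 was at -0.175 without the 2 lowest libraries and at -0.231 without the 2 that stood apart. With 1 library left out, Acadl ran from -0.197 to 0.154 and Cpt2 from -0.234 to 0.185.

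The difference in heart muscle level between double heterozygous and wildtype was -0.0326 without the 2 that stood apart and -0.0325 (without wildtype replicate 2) to 0.408 with 1 library left out. Between the mutant groups it ran from -0.166 to 0.135. With heart muscle level, the slope of Cpt2 was -0.816 without the 2 lowest libraries, and r of Ech1 was -0.0688 without the 2 farthest from the median. Genes called in all for Gata5-null against wildtype were 49 by DESeq2, 0 with only the 8 libraries, 0 without the 2 lowest libraries, 2 without the 2 that stood apart and 2 (without wildtype replicate 2) to 21 (without Gata5-null replicate 4) with 1 left out, against 5 in the main fit. DESeq2 called 8 for double heterozygous against wildtype and 13 between the mutant groups, where the fit without the 2 that stood apart called 2 and leaving out 1 library gave 0 to 1. Members called for their slope were 0 without the 2 lowest libraries, 2 without the 2 that stood apart and 0 to 8 with 1 left out, against 6.

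With the replicate number as a replicate block, 0 members were called for their slope (90 genes in all) and slopes ran from 0.32 to 0.79. The correlations of deviations between libraries of the same number were -0.033 to 0.095 across all genes. Libraries of different numbers were not compared, so these values do not decide whether the numbers pair the libraries. Actn2 was at 988, 1237 and 1060 CPM in replicate 4 of wildtype, double heterozygous and Gata5-null, and at 437 to 947 CPM in the other libraries. Ttn was highest in none of those replicates. The cause of the changes between settings was not tested. With 4 pools a group the SEs of the members' genotype differences were 0.16 to 0.30 on the log2 scale, and differences of over 2 SE, such as that of Ech1, were not called after adjustment over all genes.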
